A study of Mus musculus with 12 samples.

Results

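Untreated G1E-ER4 cells were compared with G1E-ER4 cells given Thiamet-G (TMG) alone, and the comparison took in 6 of the 12 libraries of the series. Genes were kept where their level passed 10 CPM (counts scaled to the library total) in at least 2 of these 6 libraries, which left 8005 of the 32699 genes in the files. G1E-ER4 is a clonal mouse erythroid progenitor line whose parental cells lack GATA-1, the master transcription factor of red cell formation, and it carries a GATA-1 and estrogen receptor fusion that β-estradiol (E2) switches on. The Ctrl group (3 libraries) had no treatment, and the labels name no vehicle for it. The TMG group (3 libraries) had 10 µM TMG for 30 h and no E2, so its GATA-1 fusion was not switched on by the study. The other groups had 1 µM E2 for 30 h (E2, 3 libraries) or both agents (TMG_E2, 3 libraries), and they enter below only to set the response to TMG beside the response of induced cells. All cells shared the same line, a medium with erythropoietin and stem cell factor, and puromycin selection. Nothing in the labels says whether the 3 libraries of a group came from separate cultures, so the p-values below rest on a spread between libraries that may be only technical.

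O-GlcNAc is a single sugar placed on serines and threonines of nuclear and cytosolic proteins by the transferase OGT and removed by the hydrolase OGA. TMG blocks OGA, so treated cells are known to gather O-GlcNAc on their proteins. The mark is found on transcription factors, ribosomal and signalling proteins, and its addition responds to nutrient supply through the hexosamine pathway, which makes the sugar donor. Protein O-GlcNAc was not measured in the files used here.

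The 6 libraries held 17589380 to 21804912 expected counts, at which 3 counts correspond to 0.138 to 0.171 CPM. The first principal component of the kept genes held 42.3% of the variance and separated the 3 Ctrl from the 3 TMG libraries. The second held 20.6% and set TMG replicate 3 apart, at -7.07 against -1.506 to 4.683 for the others. The labels give the cell type as embryonic stem cell, yet the 11 markers of that cell type fixed for this check summed to 0.0486 to 0.229 CPM in each library, and Pou5f1, Sox2 and Zfp42 were at 0 in all 6. Gata1, at 129 to 153 CPM, and Kit, the receptor for stem cell factor, at 485 to 507 CPM, were well above that level. Reads from the fusion gene can count for Gata1, and Kit is a progenitor gene, so neither shows an erythroid identity alone. The 22 genes of the red cell membrane list summed to 2415 to 2638 CPM, although 7 of them did not pass the filter. The 15 granulocyte and macrophage markers summed to 21.4 to 27.7 CPM, of which Coro1a held 16.8 to 23.7, and the 12 lymphoid markers summed to 0.678 to 1.31 CPM. The 11 megakaryocyte markers summed to 75.4 to 92.9 CPM, of which Nbeal2 held 66.8 to 83.7.

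TMG moved many genes by small amounts. Of the 8005 genes, 749 (9.36%) passed the test, edgeR's quasi-likelihood test at a Benjamini-Hochberg adjusted p under 0.05, and such genes are named called here. Among them 414 (5.17%) were higher and 335 (4.18%) lower with TMG. The counts called in each gene list below are to be read beside these shares. The median change among called genes was 1.14-fold, with a median log2 fold change of 0.18 for those higher and -0.21 for those lower. Only 14 higher and 10 lower genes changed by 1.5-fold or more, and 3 and 3 by 2-fold or more. In 739 of the 749 called genes all 3 TMG libraries lay on the same side of all 3 Ctrl libraries, which held for 28.6% of all genes kept. With libraries scaled by their size alone, instead of by trimmed mean of M-values, 303 genes were higher and 470 lower, while the median of all genes moved from 6.4e-04 to -0.016 on the log2 scale. Leaving out Ctrl replicate 3 left 346 called genes, and adding the E2 and TMG_E2 libraries to the fit left 426.

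**Figure D1:**
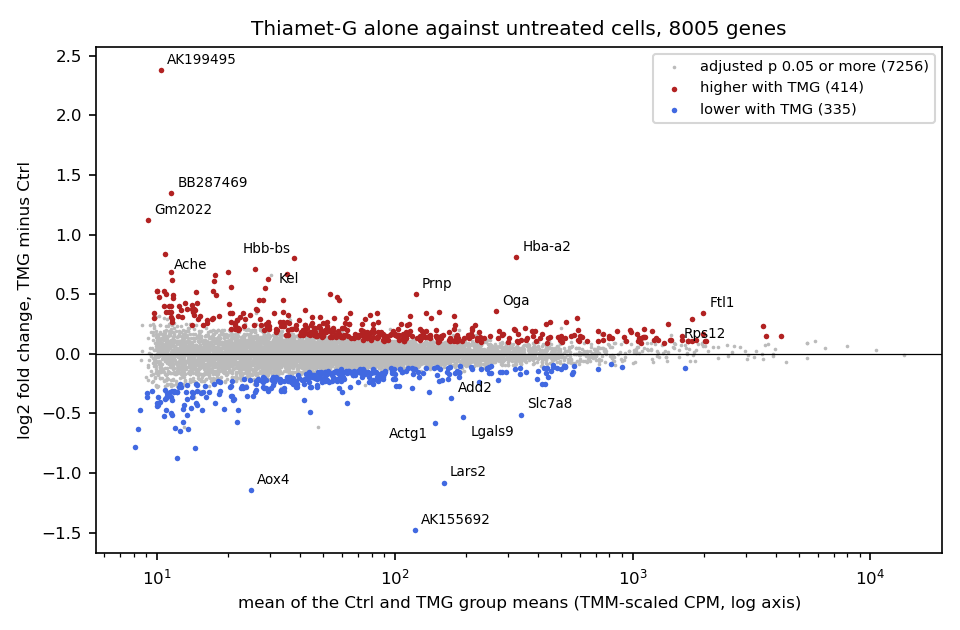
Log2 fold change of TMG against Ctrl (vertical axis) by the mean of the group means in CPM (log axis) for the 8005 genes kept. Red points are the 414 genes called higher, blue points the 335 called lower and grey points the rest, and few called genes lie past a log2 fold change of 1 or -1.

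The gene for the drug's target rose. Mgea5, now named Oga, encodes the O-GlcNAc hydrolase that TMG blocks. It is on chromosome 19 at 45750255 to 45783644 (GRCm38). Its level was 238, 233 and 227 CPM in the Ctrl libraries and 304, 302 and 290 CPM in the TMG libraries. Every TMG library was above every Ctrl library, at a log2 fold change of 0.36 ± 0.03 (SE, adjusted p = 8.16e-06). In induced cells TMG_E2 exceeded E2 by 0.41 ± 0.04 (adjusted p = 6.50e-04), and the interaction, the difference between these 2 changes, was 0.058 (adjusted p = 0.762). Ogt, which encodes the opposing transferase, stood at 351, 372 and 335 CPM in Ctrl and 365, 391 and 362 CPM with TMG, so its groups overlapped (0.079 ± 0.04, adjusted p = 0.225). With the effective length offset Ogt was called higher (0.16, adjusted p = 0.0359).

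The rest of the hexosamine pathway gave no called gene in this edgeR fit or with DESeq2 (Mgea5 included, 3 of the 8 kept genes of the list had an unadjusted p under 0.05). Gfpt1, the rate-limiting enzyme that commits fructose-6-phosphate to the pathway, was at 429, 423 and 432 CPM in Ctrl and 415, 392 and 393 CPM with TMG, just outside the threshold (-0.098 ± 0.03, adjusted p = 0.0502). It was called lower in 7 of the 16 alternative analyses, with the smallest adjusted p, 0.0265, without TMG replicate 1. Gnpnat1, Pgm3 and Uap1, which carry the sugar through acetylation, phosphate transfer and activation with UDP, had log2 fold changes of -0.066, 0.024 and 0.055. Gnpda1 and Gnpda2, deaminases that run the entry step backwards, had 0.13 (adjusted p = 0.114) and 0.15 (adjusted p = 0.265). In all, 1 of the 8 kept genes of this list was called, Mgea5, and the median of the list was 0.067. Of 15 kept genes for known partners of OGT, among them Hcfc1, Sin3a and the TET enzymes, only Sin3b was called higher (0.14 ± 0.04, adjusted p = 0.0355), and this call held only without TMG replicate 3 among the 6 fits with a library left out, reaching 0.136 without TMG replicate 2.

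Erythroid genes were among the most changed, although no E2 had been given. Hba-a2, an adult α-globin gene on chromosome 11 at 32296492 to 32297310, rose from 245, 221 and 240 CPM to 387, 423 and 431 CPM. The groups were far apart (0.81 ± 0.04, adjusted p = 3.26e-08, the smallest p of all genes). Reads of near-identical α-globin copies may be counted together in this row. Hbb-bs, an adult β-globin gene on chromosome 7 at 103826523 to 103827928, rose from 22, 18.5 and 18.6 CPM to 36.5, 31.4 and 28.3 CPM (0.71 ± 0.09, adjusted p = 1.96e-04). Both were called in each of the 16 alternative analyses. The levels remained far below those of induced cells, since the E2 libraries held 15048 to 15964 CPM of Hba-a2 and 18051 to 20209 CPM of Hbb-bs. Whether more cells or more RNA in each cell gave such a rise cannot be told apart in bulk RNA, here or for any other gene below.

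The promoters of these genes are shown because they rose together without E2, beside that of Mgea5/Oga. Each window runs from 250 bases before to 50 bases after the start that the RefSeq promoter table uses (GRCm38.p6), which for Oga and Kel lies inside the span of the gene, and is read 5′ to 3′ on the strand of the gene. Capitals mark exact matches, on either strand, to AGATAA, the string searched for GATA factors, CACACCC for KLF factors, CACGTG for the E-box and TGACTCA for AP-1 or NF-E2, which do not overlap each other in these windows. The windows are chr11:32296242-32296541 on the plus strand for Hba-a2, and chr7:103827879-103828178, chr6:41704276-41704575 and chr19:45783504-45783803 on the minus strand for Hbb-bs, Kel and Oga.
Hba-a2: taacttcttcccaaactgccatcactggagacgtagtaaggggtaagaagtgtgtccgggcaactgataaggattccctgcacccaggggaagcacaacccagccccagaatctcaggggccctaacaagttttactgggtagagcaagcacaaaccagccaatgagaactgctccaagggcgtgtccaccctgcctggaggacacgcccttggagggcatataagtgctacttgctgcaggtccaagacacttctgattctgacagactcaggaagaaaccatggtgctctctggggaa
Hbb-bs: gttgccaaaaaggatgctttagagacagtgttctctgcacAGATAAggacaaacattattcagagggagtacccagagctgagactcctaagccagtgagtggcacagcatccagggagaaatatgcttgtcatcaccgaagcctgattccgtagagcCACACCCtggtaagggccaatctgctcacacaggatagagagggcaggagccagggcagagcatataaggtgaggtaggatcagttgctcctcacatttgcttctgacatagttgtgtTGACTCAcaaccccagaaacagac
Kel: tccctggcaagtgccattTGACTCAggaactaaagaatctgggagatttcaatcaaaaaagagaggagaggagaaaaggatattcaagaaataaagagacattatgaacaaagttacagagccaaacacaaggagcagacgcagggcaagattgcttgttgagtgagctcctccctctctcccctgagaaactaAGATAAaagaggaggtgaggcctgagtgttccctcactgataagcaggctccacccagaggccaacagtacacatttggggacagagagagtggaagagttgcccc
Oga: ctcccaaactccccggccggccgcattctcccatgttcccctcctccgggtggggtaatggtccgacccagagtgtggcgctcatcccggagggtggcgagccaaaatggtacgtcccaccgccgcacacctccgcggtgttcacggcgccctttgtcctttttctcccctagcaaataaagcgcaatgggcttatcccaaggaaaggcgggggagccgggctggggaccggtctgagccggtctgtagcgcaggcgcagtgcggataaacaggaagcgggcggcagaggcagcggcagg

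The Hbb-bs window held 1 match each to the GATA, KLF and AP-1 or NF-E2 motifs, and the Kel window 1 each to the GATA and the AP-1 or NF-E2 motifs. The window of Aox4, a gene called lower, is not printed and held 1 match each to the E-box and the AP-1 or NF-E2 motifs. The Hba-a2 and Oga windows held none of these exact strings. AGATAA is only the form of the GATA site with A as its first base, and CACACCC only 1 form of the CACCC box. Other forms were not searched, such as the unmarked tgataa in the Hba-a2 and Kel windows. A window with no match may therefore still hold such a site. Over all genes kept with a promoter in the table (6430 of 8005), 7.12% held AGATAA, 9.10% CACACCC, 13.1% CACGTG and 3.87% TGACTCA. Among the 318 called higher with a promoter, the shares were 13.5%, 15.4%, 13.8% and 7.55% in the same order. Among the 277 called lower they were 7.58%, 9.03%, 12.6% and 4.69%. These shares describe letters in the windows and were not tested.

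Of the genes of the red cell membrane more were higher than lower. The list had 15 kept genes, of which 6 were called higher and 1 lower, with a median log2 fold change of 0.11 against 6.4e-04 for all genes. Kel, which carries the Kell blood group antigen, rose from 23.5, 23.4 and 22.6 CPM to 38.2, 34.8 and 34.0 CPM (0.63 ± 0.06, adjusted p = 1.75e-05). Sptb, the β chain of spectrin, the main fibre of the membrane skeleton, rose from 410, 408 and 409 CPM to 497, 489 and 494 CPM (0.27 ± 0.03, adjusted p = 1.80e-05). Epb41, which ties spectrin to actin, rose by 0.15 ± 0.03, and Rhag, the Rh-associated glycoprotein, by 0.18 ± 0.04. Add2, for the adducin chain that caps actin in the same skeleton, went the other way, from 205, 192 and 188 CPM to 156, 147 and 150 CPM (-0.37 ± 0.04, adjusted p = 3.28e-05). Counts of 6 to 7 genes higher were found whichever library was left out.

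Heme genes moved by small amounts. Of 18 kept genes for heme synthesis and transport, 5 were called higher and 1 lower, with a median of 0.081. Abcb10, a mitochondrial transporter needed for heme synthesis, rose from 72.8, 67.3 and 68.2 CPM to 85.2, 90.3 and 86.8 CPM (0.33 ± 0.04, adjusted p = 1.19e-04). Blvrb, a biliverdin reductase, rose from 199, 196 and 196 CPM to 217, 230 and 233 CPM (0.20 ± 0.03, adjusted p = 0.00212, and 0.0864 with all 12 libraries in the fit). Slc25a38, the mitochondrial glycine carrier, was higher by 0.16, and Fech, which inserts the iron, by 0.099. Neither was called in any of the 6 fits with a library left out (adjusted p up to 0.130 without Ctrl replicate 2 and 0.132 without Ctrl replicate 3). Slc25a39, a mitochondrial glutathione carrier, was the gene called lower (-0.12, adjusted p = 0.0427), and it too was called in none of these 6 fits, reaching 0.180 without Ctrl replicate 3. Cpox, Ppox, Uros, Alad and Urod, enzymes of the middle steps, were not called, with log2 fold changes of 0.079, 0.16, 0.18, 0.083 and 0.0086. Hmox1, Alas1, Clpx, Abcb6 and Hmox2 were not called either, with -0.15, -0.11, -0.10, -0.092 and -0.017. Of the 18 kept genes 11 had a positive log2 fold change. Without Ctrl replicate 2 only 2 genes of the list were called higher, and with all 12 libraries in the fit only 1.

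Some erythroid genes were too low for the filter. Alas2, the erythroid form of the first enzyme of heme synthesis, had 1.77, 2.33 and 2.61 CPM in Ctrl and 4.31, 5.12 and 3.98 CPM with TMG. Fitted with no filter on low genes, its log2 fold change was 1.01 ± 0.16 (adjusted p = 2.68e-06). In the same fit Epb42, a membrane skeleton protein, had 0.82 ± 0.21 (adjusted p = 0.00596) and Hbb-b2, another β-globin gene, 0.52 ± 0.16 (adjusted p = 0.0325). Tmod1, which caps actin (0.62 ± 0.21, adjusted p = 0.0568), and Slc4a1, the anion exchanger band 3 (0.49 ± 0.24, adjusted p = 0.267), missed the threshold. The groups overlapped for Hbb-b2, whose highest Ctrl library held 3.58 CPM and lowest TMG library 3.24 CPM, and not for the other 4 genes. Among all genes kept, TMG lay above Ctrl without overlap in 14.5%. Members of the red cell membrane list with lower values were Icam4 (-0.11, adjusted p = 0.653) and Dmtn (-0.95, adjusted p = 0.668), the latter at 11 counts summed over the Ctrl libraries and 5 over the TMG libraries. Alas2 and Epb42 stood at 141 and 86 counts summed over the Ctrl libraries and 257 and 138 over the TMG libraries.

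**Figure D2:**
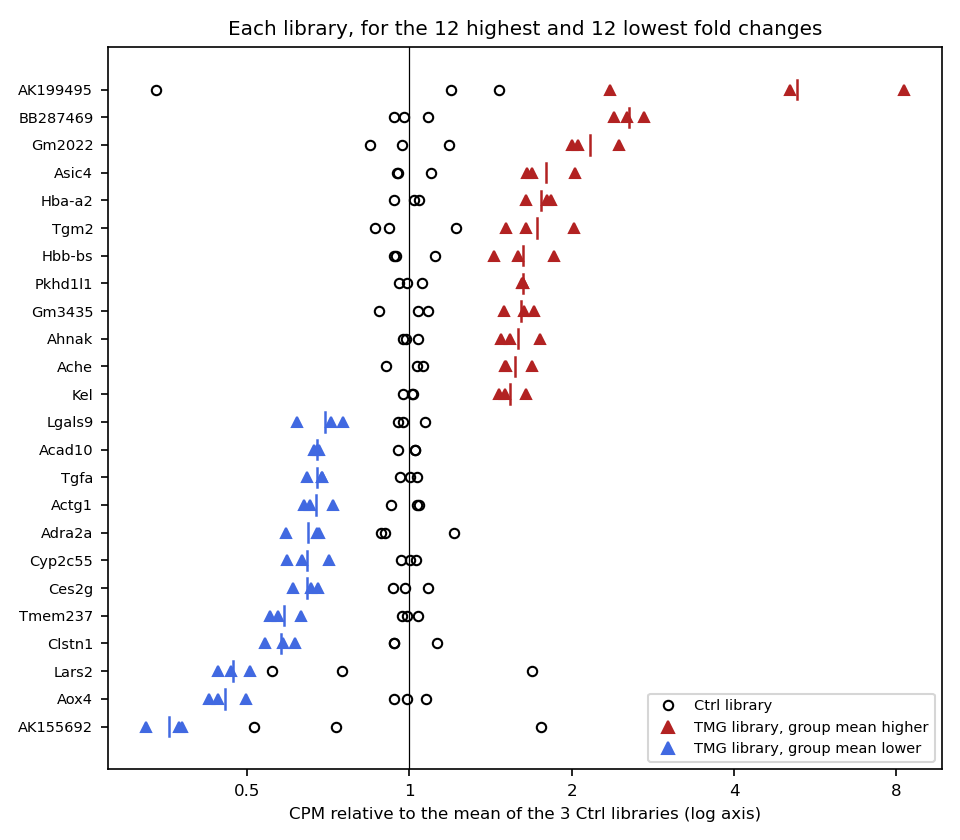
CPM in each library relative to the Ctrl mean (log axis) for the 12 highest and 12 lowest log2 fold changes among called genes whose groups do not overlap; circles are Ctrl libraries, triangles TMG libraries, and short bars the TMG mean. Most Ctrl circles lie close to 1, while Lars2, AK155692 and AK199495 have Ctrl libraries spread far apart.

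Transcription factors of the erythroid programme changed little. Of 21 kept genes 3 were called higher and none lower (1 of the 21 with DESeq2, and 0 with all 12 libraries in the fit), and the median was -0.013. Gata1 was at 135, 129 and 131 CPM in Ctrl and 153, 140 and 143 CPM with TMG (0.14 ± 0.04, adjusted p = 0.0338), and reads from the fusion gene can count there. Klf1, an activator of β-globin, was at 99.4, 94.9 and 95.7 CPM and then 100, 110 and 113 CPM (0.15 ± 0.04, adjusted p = 0.0369). The third was E2f2, a cell cycle factor of maturing red cells, at 0.14 (adjusted p = 0.0497). Gata1 and Klf1 were each called in 2 of the 6 fits with a library left out and E2f2 in none, and adjusted p reached 0.146 for Gata1 without TMG replicate 1, 0.134 for Klf1 without TMG replicate 3 and 0.180 for E2f2 without Ctrl replicate 3. Over the 21 genes the log2 fold changes ran from -0.11 to 0.30.

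Among progenitor genes 2 of 7 were called lower and none higher, with a median of -0.11. Hhex, a homeobox factor of blood progenitors, fell from 59.8, 52.9 and 52.3 CPM to 48.2, 48.1 and 43.8 CPM (-0.23 ± 0.06, adjusted p = 0.0185, 0.0845 without Ctrl replicate 1, and also past the threshold without TMG replicate 3). Myb, which sustains progenitor growth, fell from 443, 450 and 476 CPM to 416, 419 and 427 CPM (-0.12 ± 0.03, adjusted p = 0.0277, called in 2 of the 6 fits with a library left out, and 0.176 without Ctrl replicate 3). Gata2, which GATA-1 replaces during maturation, overlapped between groups at 576, 509 and 546 CPM against 493, 493 and 528 CPM (-0.11 ± 0.04, adjusted p = 0.113). Kit differed by 0.012 (adjusted p = 0.841; -0.0051 without TMG replicate 3) and Myc by -0.091 (adjusted p = 0.474; 0.021 without Ctrl replicate 1).

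The list for JAK-STAT signalling, made of pathway parts and target genes, had 3 called higher and 1 called lower of 16. Over all genes kept 5.17% were called higher and 4.18% lower. Osm, for the cytokine oncostatin M, rose from 21.7, 23.4 and 24.0 CPM to 29.6, 28.6 and 31.2 CPM (0.37 ± 0.06, adjusted p = 0.00209). Pim1, a kinase induced by STAT5, rose by 0.34 ± 0.07 and Socs2, a feedback inhibitor, by 0.25 ± 0.04. Stat5a had -0.13 ± 0.04 (adjusted p = 0.0403, called in 2 of the 6 fits with a library left out, and 0.168 without Ctrl replicate 3). The receptor gene Epor was at 94.9, 95.7 and 95.4 CPM in Ctrl and 101, 102 and 103 CPM with TMG, apart but not called (0.098 ± 0.03, adjusted p = 0.0717). Cish, also on the list, overlapped between groups and was not called (0.31 ± 0.13, adjusted p = 0.137).

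Cytosolic ribosomal protein genes rose together by small amounts. All 79 kept genes named Rpl, Rps or Rplp had a positive log2 fold change, 44 were called higher and none lower, and the median was 0.11. All 3 TMG libraries exceeded all 3 Ctrl libraries in 58 of the 79 (14.5% of all genes did so). Summed, these genes made up 9.48 to 9.55% of the counts in the Ctrl libraries and 9.92 to 10.3% in the TMG libraries. Rps12 rose from 1563, 1607 and 1613 CPM to 1885, 1992 and 1966 CPM (0.29 ± 0.03, adjusted p = 2.55e-05), and Rps23 from 1269, 1289 and 1291 CPM to 1508, 1524 and 1547 CPM (0.25 ± 0.03, adjusted p = 3.28e-05). Pseudogene copies of ribosomal protein genes can share such reads.

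Short transcripts moved upward in general, which bears on these genes. In 6 classes of effective transcript length the median log2 fold change ran from 0.034 in the shortest to -0.016 in the longest. The shortest class held 70 of the 79 ribosomal genes, with a median of 0.11 and 40 called higher. The other 1264 genes of that class had a median of 0.028, with 72 (5.70%) called higher. With the effective lengths as an offset 25 of the 79 were called higher, with a smooth correction for length and GC content 27, with all 12 libraries in the fit 16, and without Ctrl replicate 3 17. The part of transcript length or RNA quality in the rise was not tested. With E2 the median of the list was 0.018 and 1 gene was called.

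**Figure D3:**
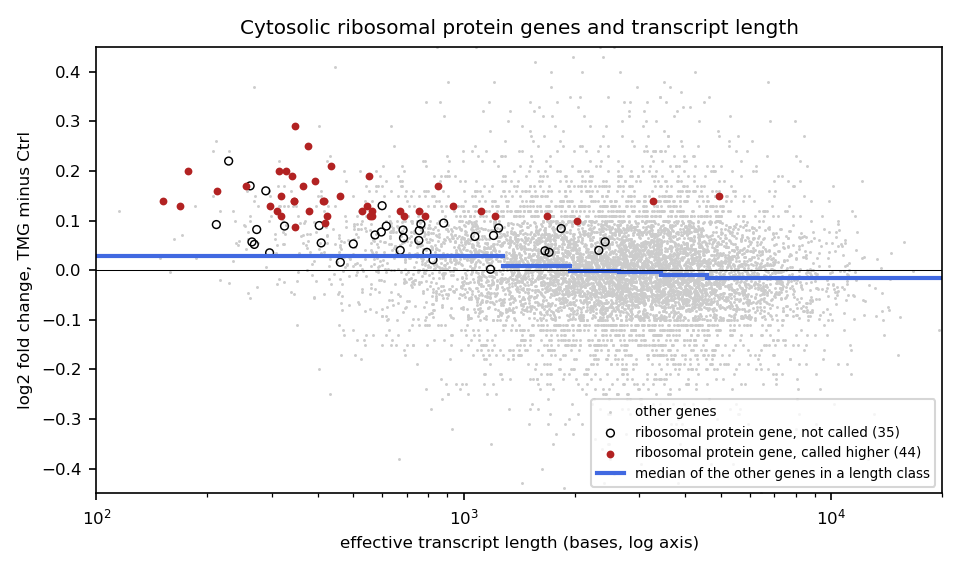
Log2 fold change of TMG against Ctrl (vertical axis) by effective transcript length (bases, log axis); red points are the 44 ribosomal protein genes called higher, open points the other 35, grey points other genes and blue lines the median of the other genes in each of 6 length classes. The ribosomal points lie above the blue line of the shortest class, 0.028, in most cases.

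Energy genes moved in part. Subunits of oxidative phosphorylation gave 9 called higher and none lower of 75, with a median of 0.038. Cox7a2l, a factor of respiratory supercomplexes, rose from 120, 120 and 125 CPM to 135, 140 and 141 CPM (0.19 ± 0.03, adjusted p = 0.00343), and Cox7a2, a subunit of cytochrome oxidase, by 0.17 ± 0.04. With length offsets, and also without Ctrl replicate 1, 2 of the 75 were called higher. With the smooth length and GC correction 3 were higher and 3 lower. Mitochondrial ribosomal protein genes had 2 called higher (0 to 2 with a library left out) and 1 lower of 76, with a median of 0.018. Of 18 glycolysis genes only Slc2a3, a glucose transporter, was called: it fell from 10.1, 10.2 and 9.25 CPM to 6.32, 7.11 and 8.0 CPM (-0.47 ± 0.10, adjusted p = 0.00820).

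Genes of sterol synthesis that changed were all higher. Of 22 kept genes 8 were called higher and none lower, the median was 0.11, and 20 of the 22 log2 fold changes were positive. Hmgcs1, the enzyme before the committed step, rose from 503, 502 and 560 CPM to 648, 622 and 663 CPM (0.30 ± 0.04, adjusted p = 2.28e-04). Idi1, the isomerase of the isoprene units, rose from 473, 465 and 493 CPM to 573, 574 and 575 CPM (0.27 ± 0.03, adjusted p = 4.62e-05). Fdps, Mvk and Fdft1, further steps of the same route, rose by 0.25, 0.24 and 0.24, and Hsd17b7 and Msmo1, which act later in the route, by 0.18 and 0.15. These last were called in 2 and 1 of the 6 fits with a library left out, with adjusted p up to 0.114 (TMG replicate 1) and 0.162 (Ctrl replicate 1). The list had 5 to 8 genes higher with any library left out, 5 of them without Ctrl replicate 1. In induced cells, TMG gave 8 higher and 1 lower, with a median of 0.17. Fatty acid synthesis gave no called gene of 16 in this edgeR fit or with DESeq2, and 4 had an unadjusted p under 0.05. With no filter on low genes 2 of them were called lower, with the replicate block 2, and with a library left out at most 1.

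Stress, iron and immune lists moved in small numbers, beside 9.36% of all genes kept that were called. Ftl1, the ferritin light chain, rose from 1685, 1786 and 1764 CPM to 2083, 2260 and 2279 CPM (0.34 ± 0.04, adjusted p = 3.28e-05), while the heavy chain Fth1 was at 2079, 2167 and 2153 CPM and then 2137, 2289 and 2217 CPM (0.054 ± 0.03, adjusted p = 0.303). Ncoa4, the receptor that takes ferritin to autophagy, rose by 0.16 ± 0.03, and the receptor Tfrc differed by 0.019 (adjusted p = 0.754; -0.016 without TMG replicate 2), so 2 of 16 iron genes were called. Of 23 oxidative stress genes 5 were called higher, led by Prdx2, a peroxiredoxin abundant in red cells (0.19 ± 0.03, adjusted p = 0.00125), and Gpx1 (0.19 ± 0.03, adjusted p = 0.0734 with all 12 libraries in the fit), with 2 of 23 called without Ctrl replicate 1. All 10 kept genes of the interferon response and antigen presentation had positive log2 fold changes and 3 were called: Ifi35 (0.28 ± 0.05), Tap2 (0.24 ± 0.05, adjusted p = 0.0758 without Ctrl replicate 3, and not called without TMG replicate 3) and B2m (0.21 ± 0.03). Heat shock genes gave no called gene of 12 in this edgeR fit or with DESeq2 (2 at an unadjusted p under 0.05), and 1 was called lower with the smooth length and GC correction.

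Of 10 kept genes of cell cycle inhibition and exit 2 were called higher and none lower. Cdkn1a, which encodes the cell cycle inhibitor p21, rose from 44.3, 44.0 and 42.1 CPM to 55.3, 49.4 and 56.5 CPM (0.31 ± 0.05, adjusted p = 0.00237). Ccng1, which encodes cyclin G1, rose from 160, 162 and 172 CPM to 186, 198 and 200 CPM (0.24 ± 0.04, adjusted p = 0.00125). A list named p53 targets holds Trp53 itself but not Cdkn1a and Ccng1, which were placed in the list above. It therefore does not cover every p53 target. This list gave none called of 7 in this edgeR fit or with DESeq2 (3 at an unadjusted p under 0.05). Its median was 0.078, with 6 of the 7 above 0. With the replicate block 3 of them were called higher, and with the smooth length and GC correction 1. The 28 DNA replication genes gave none called by this fit or DESeq2 (6 at an unadjusted p under 0.05), with log2 fold changes from -0.075 to 0.11, and 1 was called higher with the smooth correction or the replicate block. Of 20 genes of G2 and mitosis, Aurka, a mitotic kinase, was called higher (0.11, adjusted p = 0.0407) and Top2a, topoisomerase 2α, lower (-0.088, adjusted p = 0.0479). Over all genes kept 5.17% were called higher and 4.18% lower. Aurka was called in 0 and Top2a in 1 of the 6 fits with a library left out, with adjusted p up to 0.142 and 0.200 without Ctrl replicate 3, and DESeq2 did not call Aurka. Lars2, the mitochondrial leucyl-tRNA synthetase, was among the lowest genes, but its Ctrl libraries differed widely.

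Lars2 stood at 122, 370 and 164 CPM in Ctrl and 111, 96.7 and 102 CPM with TMG (-1.08 ± 0.27, adjusted p = 0.0191). AK155692, a transcript with no gene symbol in the reference, had the same shape, at 92.2, 314 and 131 CPM against 58.2, 67.1 and 67.8 CPM (-1.48 ± 0.30, adjusted p = 0.00675). In both, Ctrl replicate 2 was the high library, and without it the log2 fold changes were -0.48 and -0.80, the values nearest 0 with any library left out. The Lars2 call ended without any one of the TMG libraries (adjusted p up to 0.0774, without TMG replicate 3), and DESeq2 called neither gene (adjusted p = 0.225 for Lars2 and 0.0937 for AK155692). The cytosolic synthetases Eprs, Lars, Dars and Tars were also called lower, by -0.13, -0.12, -0.12 and -0.10, so 5 of 22 genes of this list were called lower and none higher, and 1 of 22 without Ctrl replicate 2. These 4 were called in 4, 2, 1 and 1 of the 6 fits with a library left out, with adjusted p up to 0.0711, 0.114 and 0.152 without Ctrl replicate 2, and 0.160 for Tars without Ctrl replicate 1.

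The genes of a pair of amino acid transporters and of their shared chain fell. Slc7a8, which carries large neutral amino acids, fell from 389, 385 and 426 CPM to 278, 262 and 304 CPM (-0.51 ± 0.05, adjusted p = 1.75e-05). Slc7a5, the related transporter of the same substrates, fell from 457, 439 and 458 CPM to 390, 364 and 383 CPM (-0.25 ± 0.03, adjusted p = 2.03e-04). Slc3a2, the heavy chain that both bind, fell from 451, 461 and 477 CPM to 369, 382 and 421 CPM (-0.25 ± 0.04, adjusted p = 0.00195). Slc7a5 and Slc3a2 are in the list of ATF4 targets and the unfolded protein response, of which 21 genes were kept. Of these, 3 were called lower and 1, Xbp1, higher (0.19 ± 0.05, adjusted p = 0.0251, called in 2 of the 6 fits with a library left out, and 0.137 without Ctrl replicate 3).

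**Figure D4:**
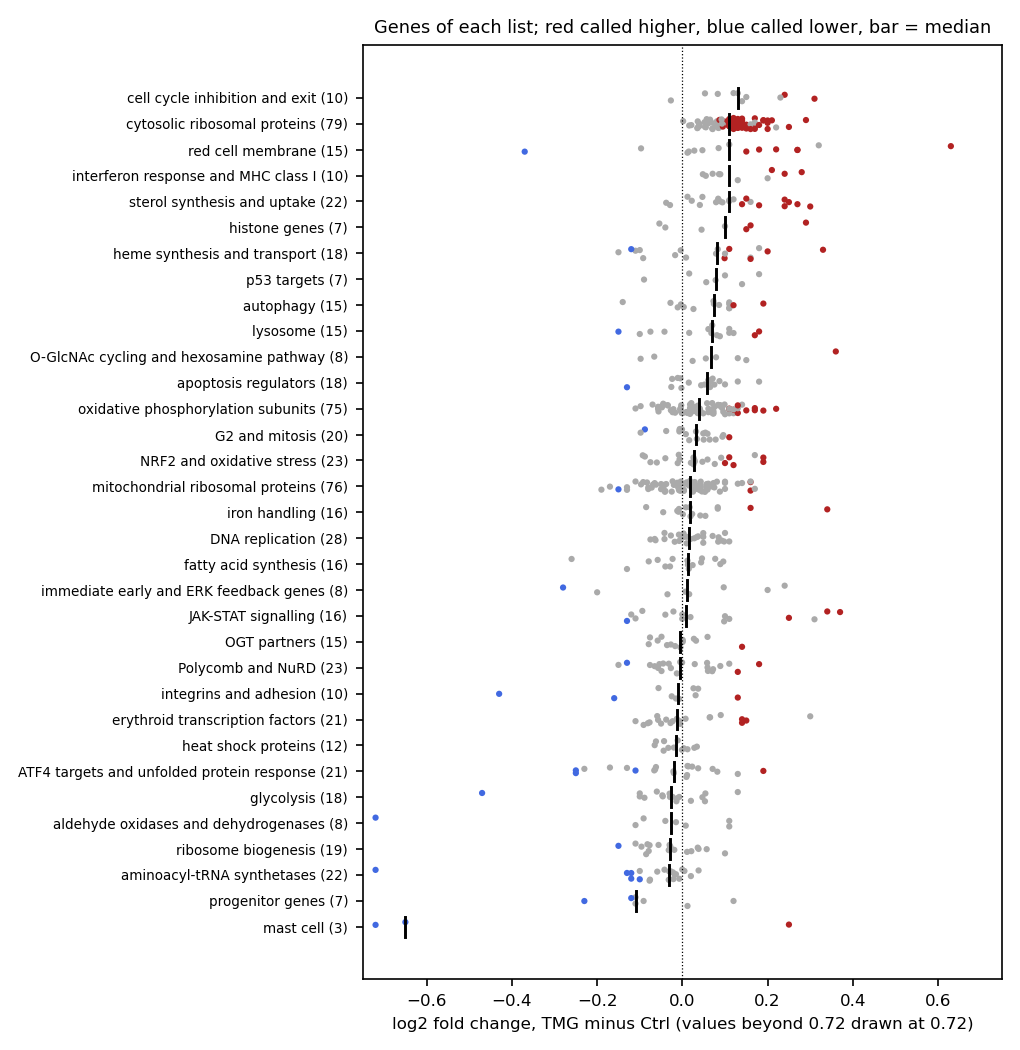
Log2 fold change of TMG against Ctrl for the kept genes of each list with at least 3 such genes (number in brackets), ordered by median (black bar); red points were called higher, blue called lower and grey neither. The medians run from 0.13 for cell cycle inhibition to -0.65 for the 3 mast cell genes, and values past 0.72 are drawn at 0.72.

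The lowest gene with close replicates was Aox4, an aldehyde oxidase. It fell from 31.9, 36.6 and 33.8 CPM to 14.5, 15.1 and 17 CPM (-1.14 ± 0.07, adjusted p = 3.04e-07), and it also fell with E2 (-1.20 ± 0.08, adjusted p = 3.10e-05). Actg1, the cytoplasmic γ-actin gene, fell from 164, 183 and 185 CPM to 113, 116 and 128 CPM (-0.58 ± 0.05, adjusted p = 8.16e-06), and reads of the other actin genes may be divided with it. Lgals9, for the sugar-binding protein galectin-9, fell from 222, 217 and 244 CPM to 163, 141 and 172 CPM (-0.53 ± 0.06, adjusted p = 5.64e-05). Tgfa, the growth factor TGF-α, fell by 0.57 on the log2 scale, the cell surface protein gene Clstn1 by 0.79 and the ciliary gene Tmem237 by 0.78.

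At the other end, BB287469 rose from 7.02, 6.32 and 6.07 CPM to 16.4, 17.6 and 15.5 CPM (1.35 ± 0.09, adjusted p = 3.04e-07). Gm2022 lies near it on chromosome 12 (BB287469 at 87816577 to 87820676, Gm2022 at 87892834 to 87896722) and rose from 6.92, 4.95 and 5.66 CPM to 14.3, 12 and 11.7 CPM (1.12 ± 0.12). Genes at that place resemble each other closely, and how reads were divided among them is uncertain. Tgm2, transglutaminase 2, rose from 33.9, 25.5 and 24.0 CPM to 56.2, 45.8 and 42.0 CPM (0.80 ± 0.11, adjusted p = 5.17e-04). Prnp, the prion protein gene, rose from 102, 102 and 100 CPM to 138, 145 and 147 CPM (0.50 ± 0.04, adjusted p = 6.26e-07). Ache, for the acetylcholinesterase of the red cell surface, rose by 0.66 ± 0.08, Ahnak by 0.67 ± 0.06 and Pkhd1l1 by 0.69 ± 0.06. AK199495 had the highest fold change (2.38 ± 0.39, adjusted p = 0.00167), from 1.13, 3.97 and 4.88 CPM to 16.9, 27.5 and 7.83 CPM, and its log2 fold change was 1.90 without TMG replicate 2. Its adjusted p was 0.0704 with all 12 libraries in the fit.

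Markers of mast cells moved both ways. Cpa3, the mast cell carboxypeptidase, was at 9.96, 15.0 and 22.2 CPM in Ctrl and 5.64, 9.49 and 11 CPM with TMG (-0.87 ± 0.24, adjusted p = 0.0325), and its groups overlapped. Ms4a2, a chain of the IgE receptor, was at 12.1, 13.4 and 20.1 CPM and then 7.45, 9.65 and 12.4 CPM (-0.65 ± 0.18, adjusted p = 0.0336), and its groups overlapped as well. Without Ctrl replicate 3 the adjusted p was 0.167 for Cpa3 and 0.168 for Ms4a2, and they were called in 2 and 3 of the 6 fits with a library left out. Il1rl1, the IL-33 receptor, rose from 57.5, 57.2 and 61.4 CPM to 67.0, 68.4 and 73.7 CPM (0.25 ± 0.05, adjusted p = 0.00365, and 0.0657 with all 12 libraries in the fit). The 13 markers summed to 83.7 to 108 CPM in Ctrl and 82.0 to 98.8 CPM with TMG, mostly Il1rl1. Too low for the filter were Hdc, the histidine decarboxylase, at 0.784 to 1.26 CPM in Ctrl and 0.339 to 0.398 CPM with TMG (62 and 21 counts), and Srgn, the granule proteoglycan serglycin, at 3.24 to 3.58 and 2.42 to 2.84 CPM (214 and 147 counts). The groups of both did not overlap, with TMG lower, which held for 14.1% of all genes kept. The granule proteases Tpsb2, Mcpt4 and Mcpt8 were at 0 in all 6 libraries. The part of a mast cell fraction in the changes above was not tested.

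The response was set beside that of induced cells, in libraries that share none with the comparison above. TMG_E2 against E2 gave 456 called genes of the 8005 (5.70%), 191 higher (2.39%) and 265 lower (3.31%). Among the 749 genes called without E2, 611 (81.6%) had the same sign with E2, against 67.5% of all genes kept. Of the 749, 182 were called the same way with E2 and 4 the opposite way, or 24.8% called. The median log2 fold change of the 414 higher genes was 0.18 without and 0.093 with E2, and that of the 335 lower genes -0.21 and -0.18. The genes were picked by their call without E2, so these medians are a description only.

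The interaction, fitted over all 12 libraries, tests that difference for each gene. It called 55 of the 8005 genes (0.687%) and 33 of the 749 (4.41%), and in 31 of the 33 the change was smaller or opposite with E2 (46 of the 55 over all genes kept). The Ctrl and TMG libraries that chose the 749 also enter the interaction, so these counts are a description only. Among the 33 were genes with far higher CPM in the E2 than in the Ctrl libraries, a difference not tested here. Hba-a2 differed by only 0.10 ± 0.09 between TMG_E2, at 13895, 17387 and 18424 CPM, and E2, at 15314, 15964 and 15048 CPM (interaction -0.70 ± 0.11, adjusted p = 0.00646). BB287469 was at 339, 298 and 302 CPM with E2 and 389, 310 and 334 CPM with both agents (interaction -1.20 ± 0.15, adjusted p = 6.76e-04). Ache was at 388, 415 and 410 CPM and 391, 435 and 380 CPM (interaction -0.65 ± 0.10, adjusted p = 0.00376).

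Slc7a8 did not fall in induced cells, where E2 libraries held 203, 192 and 202 CPM and TMG_E2 libraries 223, 206 and 214 CPM (interaction 0.62 ± 0.07, adjusted p = 6.76e-04). Il9r, the interleukin 9 receptor, went opposite ways. Its Ctrl libraries held 24.9, 26.9 and 26.9 CPM and its TMG libraries 29.5, 30.9 and 33.7 CPM (0.25 ± 0.06, adjusted p = 0.0200, 0.0872 without TMG replicate 3, and also past the threshold without Ctrl replicate 1), while 128, 132 and 130 CPM with E2 fell to 101, 103 and 98.7 CPM with both (interaction -0.61 ± 0.07, adjusted p = 6.76e-04). Fabp5, a fatty acid binding protein, rose from 325, 327 and 323 CPM to 379, 376 and 379 CPM without E2 and fell from 114, 117 and 126 CPM to 102, 91.9 and 105 CPM with it (interaction -0.46 ± 0.06, adjusted p = 0.00200). Aox4, Mgea5, Tgm2 and Hmgcs1 had interactions of -0.052, 0.058, 0.0026 and 0.11 with adjusted p of 0.944, 0.762, 0.998 and 0.735.

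**Figure D5:**
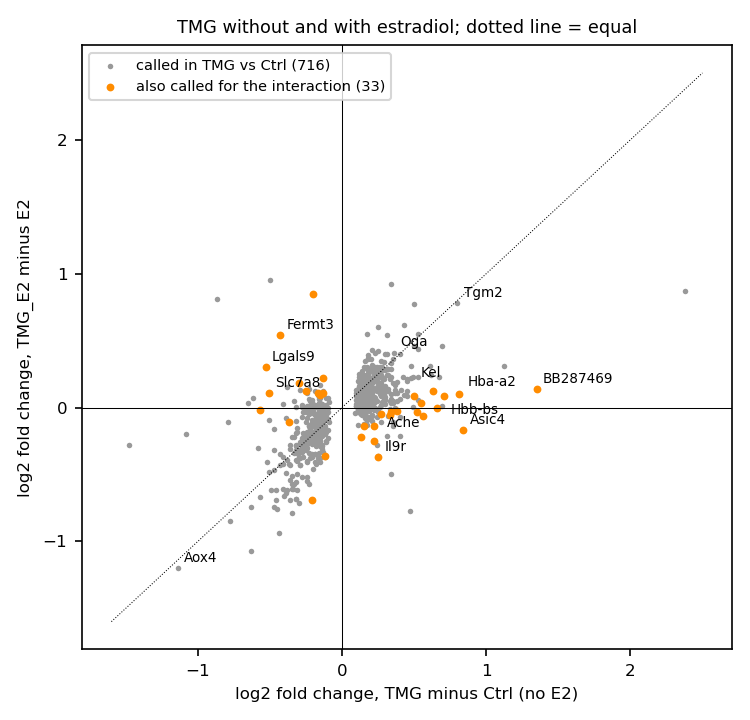
Log2 fold change of TMG without E2 (horizontal axis) and with E2 (vertical axis) for the 749 genes called without E2; orange points are the 33 also called for the interaction and the dotted line marks equal changes. Hba-a2, BB287469 and Ache lie near 0 on the vertical axis, and Aox4, Mgea5 (Oga) and Tgm2 lie near the dotted line.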

How the data were processed

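RNA-seq of 12 poly(A) libraries was used, of which 6 form the comparison. Per the labels' protocols, libraries came from a stranded TruSeq kit and were sequenced in pairs. Per the series' design text, the authors checked reads with FastQC 0.11.2, aligned them to GRCm38/mm10 and estimated expected counts with RSEM 1.2.22, and used R 3.2.2 with edgeR 3.14.0. The submitters' processing notes also name Bowtie2. Whether counting used strand: not given in the sources used here. Reads of antisense pairs can therefore be mixed. The deposited files give, per gene, an expected count, TPM and FPKM. The deposited TPM served only to describe levels per length in the tables, and the deposited FPKM was not used. Effective lengths come from the same deposited files.

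Expected counts were rounded to whole numbers. The filter kept genes passing 10 CPM in 2 or more of the 6 libraries, which were then scaled by TMM and tested with edgeR 4.0.16 (R 4.3.3), quasi-likelihood, Benjamini-Hochberg threshold 0.05, with no covariate. The CPM printed for kept genes are TMM-scaled, Ctrl and TMG libraries together and E2 and TMG_E2 libraries in a separate run. Levels set between these runs are therefore not on a common scale. List sums, the Coro1a and Nbeal2 values beside them, genes below the filter and the filter itself use library size alone. The same 8005 genes were tested for TMG_E2 against E2 and for the interaction. Libraries of a group differed beyond counting noise, at chi-squares of 2.44 to 4.27 for each degree of freedom. The code was tested on simulated data. Alternatives used DESeq2 1.42.0, limma 3.58.1, other scalings, filters and length offsets, and each library left out; the smooth length and GC offset was chosen after seeing the data.

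The members, the 38 gene lists and the tests were chosen with earlier results of these data known. Named genes are the 12 highest and 12 lowest called fold changes with groups apart, the 5 smallest p, the 5 most abundant, up to 3 called genes of each list, the O-GlcNAc, globin and heme genes, Ogt, Gata1, Gata2 and Klf1, and the 8 strongest interactions; further list members and genes named were chosen after their values were seen. Some genes that the rule named are not reported here. The gene just inside the CPM filter was Arl13b (second-highest CPM 10.002), and Mon1a (9.998) was just outside.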

Additional observations from a re-analysis of the deposited data

Results flagged for a closer look

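The response to TMG differed between cells without and with E2 for 17 of the 119 named genes, by the interaction over all 12 libraries at an adjusted p under 0.05 (edgeR), which called 0.687% of all genes kept. Genes were named in part for a strong interaction or a large change with TMG alone, so the count of 17 follows in part from that choice. A negative value means that the change with TMG was higher without E2 than with it. The negative values were -1.20 for BB287469, -1.01 for Asic4, -0.70 for Hba-a2, -0.65 for Ache, -0.61 for Hbb-bs and for Il9r, -0.51 for BC057675, -0.49 for Kel, -0.46 for Fabp5, -0.40 for Prnp and -0.31 for Sptb. The positive values were 0.98 for Fermt3, 0.84 for Lgals9, 0.62 for Slc7a8, 0.55 for Tgfa, 0.37 for Slc3a2 and 0.27 for Add2.

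Of these 17, 9 stayed called whichever of the 12 libraries was left out (Ache, Asic4, BB287469, BC057675, Fabp5, Hba-a2, Il9r, Prnp and Slc7a8). The other 8 lost the call in at least 1 such fit. Kel lost it only without Ctrl replicate 3 (adjusted p = 0.0562), and Lgals9 reached 0.0750 without E2 replicate 2. Hbb-bs was called in 6 of the 12 fits and reached 0.0897 without Ctrl replicate 3, and Fermt3 was called in 6 and reached 0.0741 without TMG replicate 2. Add2, Tgfa, Slc3a2 and Sptb were called in 1, 2, 3 and 4 of the 12 fits.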

How the results depend on the processing

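In 16 alternative analyses of TMG against Ctrl no named gene called in the first analysis changed sign, and 56 of the 100 were called the same way in all 16. Called genes numbered 749 (414 higher, 335 lower). DESeq2 called 490 (203 lower), the fit of all 12 libraries 426 (249 higher, 177 lower), the effective length offset 268 higher, and no filter 505 lower of 1021. Leaving out a library gave 346 to 547 called, 189 to 301 higher and 157 to 246 lower, with the fewest without Ctrl replicate 3. Leaving out a library gave 82 to 538 for TMG_E2 against E2 (456 called, fewest without E2 replicate 3) and 12 to 126 for the interaction (55 called, 92 with DESeq2, fewest without Ctrl replicate 3).

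Genes that were not called and crossed 0 were Urod (-0.0077 with library size alone, -0.0082 to 0.018 with a library left out), Kit (-0.0043 with library size alone, -0.0051 to 0.029 with a library left out) and, with a library left out, Pgm3 (-0.057 to 0.086), Hmox2 (-0.046 to 0.013), Myc (-0.16 to 0.021) and Tfrc (-0.016 to 0.043). The cause was not tested. The replicate numbers were not taken to pair libraries, since the study does not state such a pairing. Same-numbered Ctrl and TMG libraries deviated together by correlations of 0.109, 0.0675 and 0.169, against -0.172 to 0.0345 for libraries with different numbers. Each library correlated best with its own number. With the replicate block, 996 genes were called for TMG, 1292 for TMG_E2 against E2 and 146 for the interaction. At these depths 3 counts correspond to 0.138 to 0.171 CPM, so smaller levels rest on fewer than 3 counts in a library.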
